A study of Mus musculus with 23 samples.

Results

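The tumour necrosis factor (TNF) family of ligands and receptors was followed in mouse colon over 6 days of dextran sulfate sodium (DSS), a polymer that damages the epithelial lining and is widely used to model acute colitis. The members were all probe sets whose platform gene symbol is Tnf, Lta, Ltb, Ltbr, Fas, Fasl, Cd27, Cd40 or Cd40lg, or begins with Tnfsf or Tnfrsf. This gave 58 of the 45037 probe sets other than controls, and 36 of the 18201 genes they name: 12 ligands, 23 receptors and Tnfsf13os, a noncoding gene on the opposite strand of Tnfsf13 that the symbol rule also takes in. Of these, 22 genes (5 ligands, 16 receptors and Tnfsf13os) were bright enough to be tested, among 12464 genes in all.

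All mice were C57BL/6J, an inbred laboratory strain, aged 12 to 14 weeks. The 5 arrays of day 0 came from normal colon without DSS, and 6 arrays each came from mice given 3% DSS in drinking water for 2, 4 or 6 days. The cohorts were separate, so each array is taken as a different animal and is named here by its day and mouse number. Values are the authors' MAS5 signal intensities, a brightness per probe set on a linear scale. Changes are differences of log2(signal + 16) with their standard error (SE). Calls rest on limma's moderated test, two-sided, with p-values adjusted by Benjamini-Hochberg over all 12464 genes, and a gene is said to pass where this adjusted p is at most 0.05.

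TNF family ligands are mostly trimeric membrane proteins, some of which are shed by proteases and then act at a distance. Their receptors fall into those with a death domain, which can start apoptosis or necroptosis, those that bind TRAF adaptor proteins and activate NF-kappaB, and decoys that hold ligand without signalling. In colon, TNF itself is the target of antibodies used to treat inflammatory bowel disease, and other members control T cell costimulation, B cell survival and the building of lymphoid follicles.

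The arrays carried signal of colon epithelium throughout: all 10 epithelial markers were measured, with a summed signal between 115369 and 158388. Some inflammatory and stromal marker lists were higher at day 6 than at day 0, among them the macrophage, neutrophil and fibroblast lists, while the smooth muscle, mast cell, T and NK cell and B cell lists did not pass. The summed signal of 10 monocyte and macrophage markers ranged from 8293 to 12036 at day 0 and from 18161 to 34273 at day 6, and that of 9 neutrophil markers from 397 to 881 and from 2363 to 13162 (exact permutation p = 0.00216 and adjusted p = 0.0148 for both, over 48 tests, and 0.00216 is the smallest p that 5 against 6 arrays allow). Squamous epithelium markers ranged from 6218 to 10989 at day 0 and from 19308 to 42207 at day 6 (exact permutation p = 0.00216, adjusted p = 0.0148). Measures of RNA and array quality also moved with day: hybridization controls, transcripts added to each sample, were lower by 0.50 on the log2 scale at day 6 (exact permutation p = 0.00433, adjusted p = 0.00649), and the beta-actin 3' to 5' log2 ratio was 0.61 at day 4 and 0.51 at day 6 against 0.43 at day 0 (exact permutation adjusted p = 0.00649 and 0.00487). In 4 arrays pancreatic or squamous signal stood apart. Pancreatic markers summed to 168233 on day 2 mouse 6 and 46953 on day 6 mouse 1, and squamous markers to 626 on day 2 mouse 8 and 853 on day 4 mouse 8. Other arrays differed in neighbouring tissue too. Skeletal muscle markers summed to 2863 on day 6 mouse 4, against 10645 to 48940 on the other day 6 arrays. Pancreatic markers were lowest on day 6 mouse 7 (2560) and day 6 mouse 21 (2945). The part of these tissues and of RNA quality in the family's changes was not tested. In whole tissue, fewer or more cells of a type and less or more RNA per cell cannot be told apart.

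Sequences upstream of the start are shown for 3 members: Tnf, the founding ligand; Fas, the tested member whose day 2 arrays all lay above day 0; and Tnfrsf9, the tested member with the largest change from day 0 to day 6, at the downstream of its 2 annotated starts. Each run is 250 bases that end at the start, 5′ to 3′ on the gene's strand, from RefSeq on build GRCm38.p6. Capitals mark matches, on either strand, to 3 motifs: an NF-kappaB motif (GGG, any 3 bases, then TTCC), an AP-1 motif (TGANTCA) and a TATA box (TATAAA).
Tnf, chr17:35202008-35202257, minus strand: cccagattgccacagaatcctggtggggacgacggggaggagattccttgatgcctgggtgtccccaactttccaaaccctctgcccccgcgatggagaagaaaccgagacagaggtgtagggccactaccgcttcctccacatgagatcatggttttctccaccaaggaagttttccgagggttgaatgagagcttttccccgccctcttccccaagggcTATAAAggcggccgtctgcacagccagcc
Fas, chr19:34290409-34290658, plus strand: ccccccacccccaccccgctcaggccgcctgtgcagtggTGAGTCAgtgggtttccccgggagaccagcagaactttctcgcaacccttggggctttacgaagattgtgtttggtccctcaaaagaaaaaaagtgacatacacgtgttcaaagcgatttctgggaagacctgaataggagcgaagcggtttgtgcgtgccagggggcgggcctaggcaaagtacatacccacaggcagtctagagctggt
Tnfrsf9, chr4:150927749-150927998, plus strand: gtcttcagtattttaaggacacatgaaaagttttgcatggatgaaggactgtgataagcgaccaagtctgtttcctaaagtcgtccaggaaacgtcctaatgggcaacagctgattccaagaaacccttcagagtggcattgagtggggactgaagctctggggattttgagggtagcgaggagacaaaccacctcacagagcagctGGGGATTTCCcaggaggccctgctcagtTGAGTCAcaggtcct
Tnf holds a TATA box at bases 222 to 227 of the window, Fas an AP-1 motif at bases 40 to 46, and Tnfrsf9 an NF-kappaB motif at bases 208 to 217 and an AP-1 motif at bases 236 to 242, which do not overlap. The upstream start of Tnfrsf9 held none of the 3 motifs. Windows of 300 bases (250 before and 50 after the start) were found for 28 of the 36 genes, 32 windows in all. The NF-kappaB motif was in 3 of the 32 (Ltb, Tnfrsf25 and Tnfrsf9) and in 5.56% of all 32851 windows. The AP-1 motif was in 6 (Fas, Tnfrsf8, Tnfrsf9, Tnfsf14 and both windows of Tnfsf13b) and in 7.81% of all, and the TATA box in 5 (Lta, Tnf, Tnfrsf17, Tnfrsf23 and Tnfsf11) and in 13.6% of all. A match describes letters in the window, not a site in use.

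The counts of members that passed grew from day to day, as did those of all genes. At day 2 none of the 22 tested genes passed, where 0.0802% of all genes passed. At day 4, 3 rose against day 0 and none fell, where 12.1% of all genes rose and 4.32% fell, so the members' count lay near that of all genes. At day 6, 13 rose and 1 fell, where 18.1% of all genes rose and 14.3% fell. The median log2 change of the 22 genes at day 6 was 0.72, against 0.02 over all genes tested. Between day 2 and day 4, 1 rose and 1 fell (9.43% and 4.09% of all genes), and between day 4 and day 6, 8 rose and 1 fell (9.09% and 13.7% of all genes). Comparisons with day 0 share its 5 arrays, and those of successive days share the arrays of the middle day.

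The filter on low values bears on these counts. It kept a probe set if at least 5 arrays lay above their own median, and 5 members reached this with at most 4 such arrays outside day 6: Tnf (1), Tnfsf9 (0), Tnfrsf9 (2), Tnfrsf11b (3) and Cd40 (4). All 5 were tested only through day 6 arrays above their own median. A high signal at day 6 was thus in part a condition of their being tested, most for Tnfsf9 and least for Cd40. With no filter, over 18201 genes, all 36 members entered the fit and 14 rose and 2 fell at day 6, where 12.6% of all genes rose and 9.16% fell. The median log2 change of the 36 was then 0.41, against 0.045 over all genes in that fit.

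**Figure D1:**
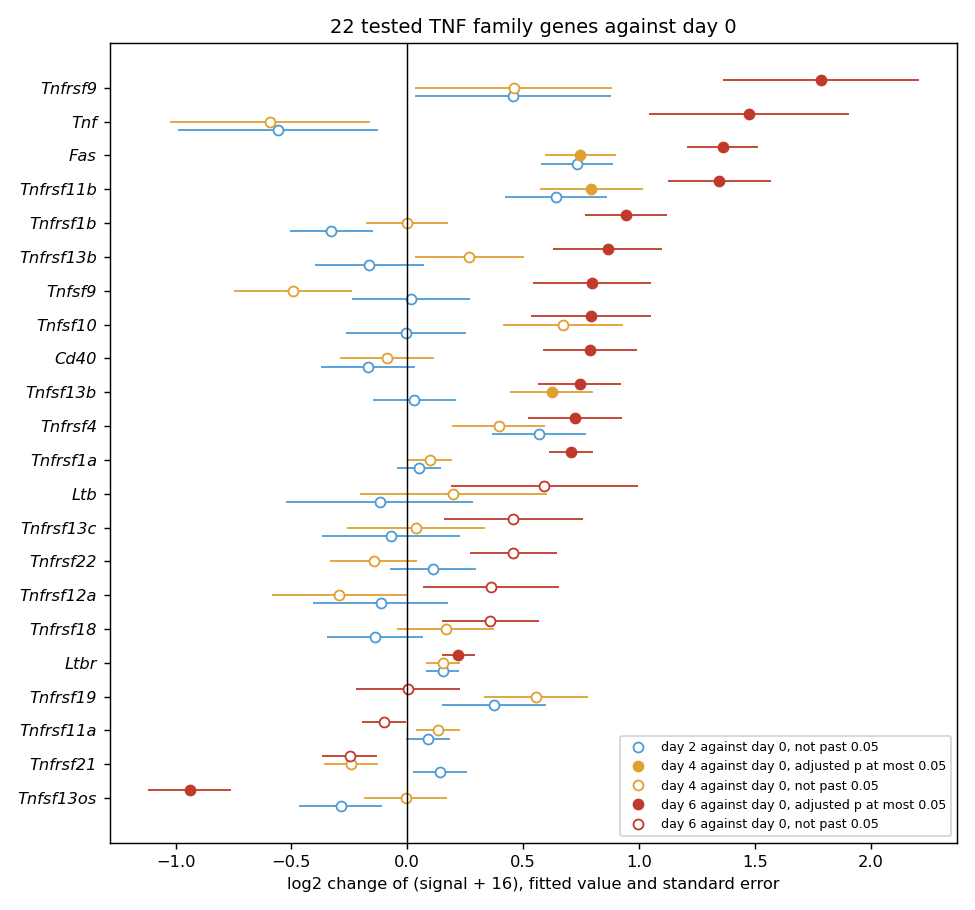
Fitted log2 change of (signal + 16) against day 0 for the 22 tested genes (horizontal axis, bars are the standard error), in blue for day 2, orange for day 4 and red for day 6, with filled points at an adjusted p of 0.05 or less. At day 6, 13 points are filled to the right of 0 and 1, Tnfsf13os, to the left, while day 4 has 3 filled points and day 2 none.

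Tnf, made mainly by macrophages and T cells, was dim until day 6 and reached the filter only with its day 6 arrays. Its signal at day 0 was 43.0, 51.1, 52.8, 66 and 85. The lowest, median and highest signals were 8.84, 45.0 and 65.1 at day 2, 12.4, 23 and 166 at day 4, and 90.5, 183 and 363 at day 6. All 6 arrays of day 6 lay above all 5 of day 0. The arrays of day 4 lay below them too, except day 4 mouse 7 at 166. Tnf rose by 1.47 (SE 0.43) on the log2 scale from day 0 to day 6 (limma adjusted p = 0.011) and by 2.07 (SE 0.41) from day 4 to day 6 (limma adjusted p = 0.000879). Its changes at day 2 (-0.56) and day 4 (-0.59) did not pass. With the hybridization control level as a covariate the day 6 change against day 0 was 0.79 and did not pass (limma adjusted p = 0.568), while that against day 4 still did.

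The lymphotoxins, neighbours of Tnf on chromosome 17, gave no call. Ltb encodes the membrane subunit that builds lymphoid tissue through Ltbr. Its day 0 signal ranged from 70.6 to 334 and its day 6 signal from 137 to 801, so the days overlapped, and the log2 change was 0.59 (SE 0.40, limma adjusted p = 0.279). Lta, which encodes soluble lymphotoxin, lay between 4.00 and 44.5 on all arrays and was not kept by the filter.

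**Figure D2:**
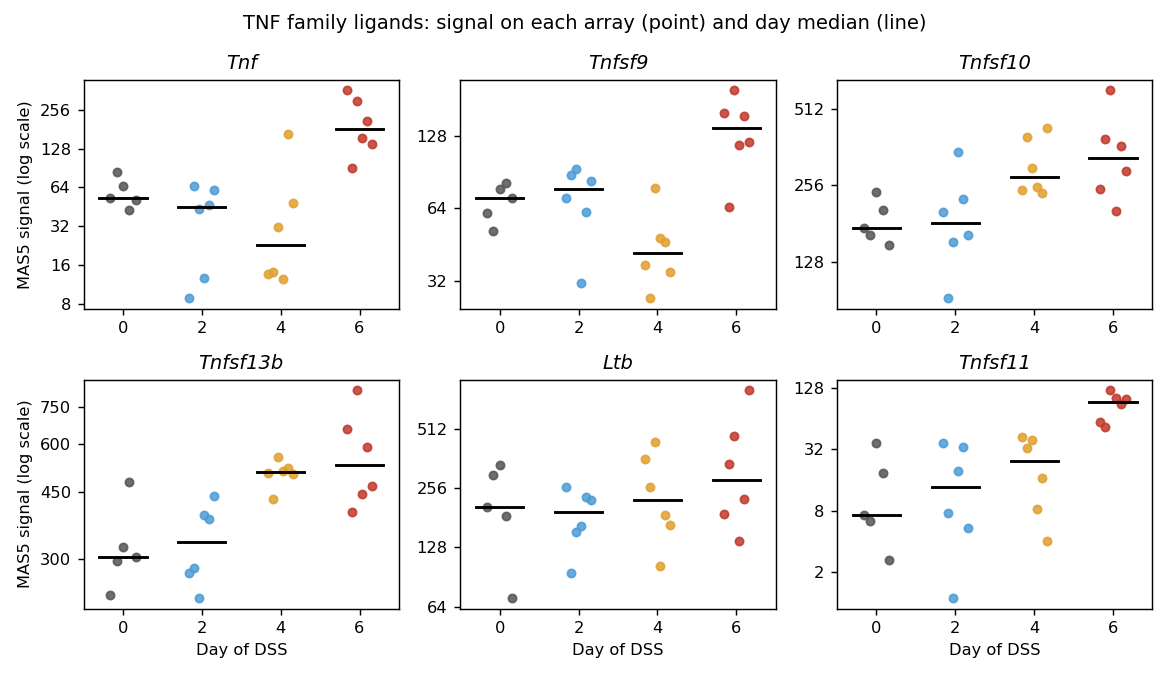
Signal of 6 ligand genes on each of the 23 arrays (points, log axis, own scale in each panel) by day of DSS (horizontal axis), with the median of each day as a line. Tnf and Tnfsf11 at day 6 lie above all arrays of day 0, while Ltb spreads from 137 to 801 at day 6 and overlaps day 0.

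The receptors for TNF rose at day 6 as well. Tnfrsf1a, the death domain receptor for TNF found on most cell types, had day 0 signals of 1708, 1888, 2005, 2028 and 2770. Its lowest, median and highest signals were 1986, 2129 and 2267 at day 2, 1908, 2178 and 2510 at day 4, and 2935, 3332 and 3917 at day 6. Every array of day 6 exceeded every array of the other days. The rise was 0.71 (SE 0.10) from day 0 (limma adjusted p = 6.5e-06) and 0.61 (SE 0.09) from day 4 (limma adjusted p = 5.04e-05), and both passed under all 15 alternatives tried.

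Tnfrsf1b, the TRAF-binding TNF receptor found mostly on immune and endothelial cells, had day 0 signals of 456, 592, 629, 637 and 869. Its lowest, median and highest signals were 351, 480 and 712 at day 2, 539, 573 and 784 at day 4, and 874, 1275 and 1529 at day 6. Again day 6 overlapped no other day, though its lowest array, day 6 mouse 3 at 874, stood just above the highest of day 0 at 869. It rose by 0.95 (SE 0.18) from day 0 (limma adjusted p = 0.000253) and by 0.95 (SE 0.17) from day 4 (limma adjusted p = 0.000296). A second probe set for Tnfrsf1b rose from day 4 to day 6 by 1.05 (limma adjusted p = 0.00416), but its change from day 0 was 0.47 and did not pass (limma adjusted p = 0.179).

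Fas, a death domain receptor that starts apoptosis, was the 1 tested member whose day 2 arrays did not overlap day 0. The share of all genes with no such overlap was not counted. Day 0 signals of Fas were 150, 157, 164, 168 and 181. The lowest, median and highest were 239, 277 and 343 at day 2, 194, 292 and 379 at day 4, and 340, 438 and 586 at day 6. Every array of days 2, 4 and 6 lay above every array of day 0. The log2 change was 0.73 (SE 0.15) at day 2, which narrowly missed the threshold (limma adjusted p = 0.0619), 0.75 (SE 0.15) at day 4 (limma adjusted p = 0.00218) and 1.36 (SE 0.15) at day 6 (limma adjusted p = 6.19e-07). Its change from day 2 to day 4 was 0.01 (SE 0.15, limma adjusted p = 0.966), and it rose by 0.61 from day 4 to day 6 (limma adjusted p = 0.00392). The day 2 change passed under quantile normalization (limma adjusted p = 0.0348), under median centring (0.037), in a fit of days 0 and 2 alone (0.0206) and without day 4 mouse 6 (0.0386). It did not pass under any other alternative or with any other array left out. The day 4 change did not pass with the hybridization control covariate (0.81, limma adjusted p = 0.0546). Its ligand Fasl, carried by cytotoxic lymphocytes, was not kept by the filter. Its brighter probe set lay between 3.40 and 64.9 on all arrays and the other between 2.9 and 54.4.

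**Figure D3:**
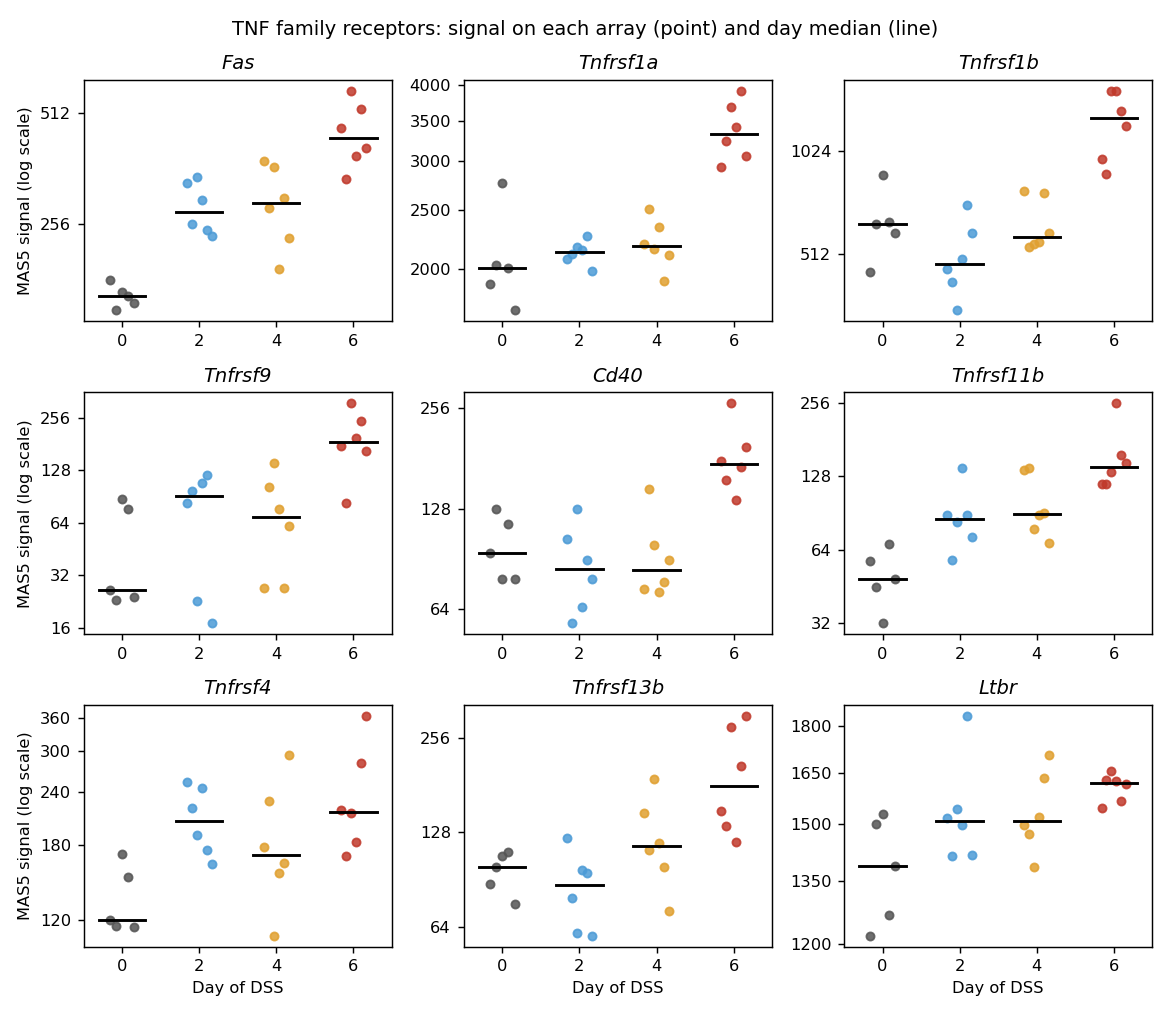
Signal of 9 receptor genes on each of the 23 arrays (points, log axis, own scale in each panel) by day of DSS (horizontal axis), with the median of each day as a line. Fas at days 2 and 4 already lies above all 5 arrays of day 0, whereas Tnfrsf1a and Tnfrsf1b are apart from the other days at day 6.

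Among the other death receptors and their ligand, Tnfsf10 (TRAIL), which kills cells through death receptors, ranged from 149 to 241 at day 0 and from 203 to 606 at day 6. The days overlapped, and it rose by 0.79 (SE 0.26, limma adjusted p = 0.0215). A second probe set rose by 0.72 (limma adjusted p = 0.0205). The dimmest, not kept, ranged from 7.3 to 60.8 at day 0 and from 5.6 to 137 at day 6. The call of the first was lost without day 6 mouse 4 (limma adjusted p = 0.0638) and without day 0 mouse 5 (0.0561). Tnfrsf10b, the TRAIL death receptor of the mouse, was not kept, with a brighter probe set between 10.4 and 77.5 and another between 4.2 and 60.6. Tnfrsf22, a mouse decoy receptor for TRAIL, rose by 0.60 (SE 0.18) from day 4 to day 6 (limma adjusted p = 0.0165), a call lost without day 6 mouse 4 (0.0516), and its change of 0.46 from day 0 did not pass (limma adjusted p = 0.0637). Tnfrsf23, the adjacent decoy gene, lay between 8.80 and 78.7 and was not kept.

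Tnfrsf21 (death receptor 6) was the 1 tested receptor that fell in any of the 5 comparisons: from a range of 1864 to 2282 at day 2 to 1244 to 1960 at day 4, a log2 change of -0.38 (SE 0.11, limma adjusted p = 0.0272). The days overlapped. This call was lost without any 1 of 5 arrays, at most with an adjusted p of 0.0829 without day 4 mouse 4, followed by day 4 mouse 3 (0.0662), day 2 mouse 17 (0.0613), day 2 mouse 7 (0.0555) and day 4 mouse 1 (0.0518). Its second probe set changed by -0.40 and did not pass (limma adjusted p = 0.0626). Tnfrsf25, the death domain receptor for Tnfsf15, lay between 8.30 and 113 and was not kept.

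Members of T cell costimulation included a ligand and receptor pair, Tnfsf9 and Tnfrsf9, called higher at day 6. Both reached the filter only with their day 6 arrays, so a higher day 6 was a condition of their being tested. Tnfrsf9 (CD137), induced on activated T cells, had the largest change from day 0 to day 6 of the tested members: its signal ranged from 23.3 to 87.5 at day 0, from 17.1 to 120 at day 2, from 27.1 to 140 at day 4 and from 83.6 to 308 at day 6. On this probe set only day 6 mouse 3, at 83.6, lay within the range of day 0. Another probe set, not kept, overlapped at 9.3 to 35.2 at day 0 and 22.2 to 65.3 at day 6. The dimmest probe set, also not kept, overlapped at 2.6 to 6.2 at day 0 and 3.8 to 46.5 at day 6. The rise was 1.78 (SE 0.42) from day 0 (limma adjusted p = 0.00231) and 1.33 (SE 0.40) from day 4 (limma adjusted p = 0.0196). The latter was lost without day 6 mouse 4 (0.0524) and without day 4 mouse 1 (0.0513). It was also lost without the 4 arrays whose pancreatic or squamous signal stood apart, high or low (0.0505). Tnfsf9, the ligand of Tnfrsf9 on antigen-presenting cells, ranged from 51.3 to 81.4 at day 0, from 27.1 to 77.6 at day 4 and from 64.6 to 197 at day 6. It rose by 0.80 (SE 0.25) from day 0 (limma adjusted p = 0.0185) and by 1.29 (SE 0.24) from day 4 (limma adjusted p = 0.000495). The first of these was lost without day 6 mouse 4 (0.0517) and without day 0 mouse 2 (0.0505).

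Tnfrsf4 (OX40), which sustains activated T cells, ranged from 115 to 172 at day 0, from 162 to 253 at day 2 and from 170 to 363 at day 6. It rose by 0.72 (SE 0.20) at day 6 (limma adjusted p = 0.00811), and its change of 0.57 at day 2 did not pass (limma adjusted p = 0.222). Tnfrsf18 (GITR), its neighbour on chromosome 4 and a receptor high on regulatory T cells, changed by 0.36 at day 6 (limma adjusted p = 0.198). Cd27, Cd40lg, Tnfsf4 (the OX40 ligand), Tnfsf8 and its receptor Tnfrsf8 were not kept by the filter, with highest signals of 64, 80.4, 127, 88.0 and 81.9. Summed T and NK cell markers ranged from 778 to 1334 at day 0 and from 701 to 2117 at day 6 (exact permutation p = 0.53, adjusted p = 0.688).

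Cd40, through which T cells activate B cells and macrophages, had day 0 signals of 78.6, 79.1, 94.1, 115 and 127. Its lowest, median and highest signals were 58.2, 84.3 and 128 at day 2, 72.0, 83.7 and 147 at day 4, and 136, 174 and 265 at day 6. No array of day 6 overlapped day 0, and day 6 mouse 7 at 136 lay below the highest array of day 4. Cd40 reached the filter only with its day 6 arrays. It rose by 0.79 (SE 0.20) from day 0 (limma adjusted p = 0.00429) and by 0.88 (SE 0.19) from day 4 (limma adjusted p = 0.00207). Its second probe set rose by 1.01 from day 0 (limma adjusted p = 0.00927), and its change of 0.73 from day 4 did not pass (limma adjusted p = 0.063).

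The B cell survival axis rose in part. Tnfsf13b (BAFF), a ligand needed by mature B cells, was 241 to 479 at day 0, 237 to 440 at day 2, 430 to 556 at day 4 and 399 to 830 at day 6. Within day 0 the highest array, day 0 mouse 4 at 479, overlapped the later days, and the other 4 arrays lay at or under 323. It rose by 0.62 (SE 0.18) at day 4 (limma adjusted p = 0.0195) and 0.74 (SE 0.18) at day 6 (limma adjusted p = 0.00253), and by 0.59 from day 2 to day 4 (limma adjusted p = 0.0259). The day 4 call against day 0 was lost without day 0 mouse 1 (0.0634). That against day 2 was lost on leaving out day 2 mouse 7 (0.0654), on leaving out day 4 mouse 4 (0.0637) and on leaving out day 2 mouse 1 (0.0537). A dimmer probe set for Tnfsf13b, not kept, overlapped, at 70.6 to 86.6 at day 0 and 74.3 to 141 at day 6. Another lay at or under 44.1 on all arrays.

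Of the BAFF receptors, Tnfrsf13b (TACI) had day 0 signals of 75.9, 87.7, 99.4, 108 and 111. Its lowest, median and highest were 60.1, 87.0 and 123 at day 2, 72.0, 116 and 189 at day 4, and 119, 179 and 300 at day 6. Day 6 did not overlap day 0, and the rise was 0.87 (SE 0.24, limma adjusted p = 0.00669). Tnfrsf13c, the receptor through which BAFF keeps B cells alive, changed by 0.46 (SE 0.30) at day 6 (limma adjusted p = 0.255), with signals from 48.7 to 153 at day 0 and from 65.2 to 259 at day 6. Tnfrsf17 (BCMA), a receptor of plasma cells, was not kept by the filter. In the fit with no filter it fell by 1.52 (SE 0.36) at day 6 (limma adjusted p = 0.00353): its day 0 signals were 21.3, 49.4, 84.0, 96.7 and 97.5, and 5 of the 6 day 6 arrays lay at or under 9.30, with day 6 mouse 21 at 48.7. The summed signal of 6 plasma cell markers was 12554 to 16991 at day 0 and 8898 to 11955 at day 6 (exact permutation p = 0.00216, adjusted p = 0.0148).

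Levels of B cell linked members differed widely among mice of 1 day. The summed signal of 7 B cell markers ran from 613 to 3480 at day 6, highest on day 6 mouse 29 and next on day 6 mouse 4 (2767), against 469 to 1541 at day 0 (exact permutation p = 0.26, adjusted p = 0.437). Ltb, Tnfrsf13b and Tnfrsf13c were each highest of all arrays on day 6 mouse 29, at 801, 300 and 259, and next on day 6 mouse 4, at 468, 277 and 232. As a description of these arrays, with no test, the log2 signal followed the log2 B cell level over the 23 arrays with Pearson's r = 0.93 and Spearman's rho = 0.93 for Ltb, 0.90 and 0.87 for Tnfrsf13c, and 0.72 and 0.58 for Tnfrsf13b. With day 6 mouse 29 and day 6 mouse 4 left out, the arrays farthest from the median, r was 0.88, 0.83 and 0.50. Within days 2, 4 and 6 (n = 6 each) r was 0.64, 0.91 and 0.97 for Ltb, 0.76, 0.78 and 0.99 for Tnfrsf13c, and -0.04, 0.74 and 0.82 for Tnfrsf13b. These 3 genes and the B cell list were paired after it was seen that they peak on the same arrays.

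**Figure D4:**
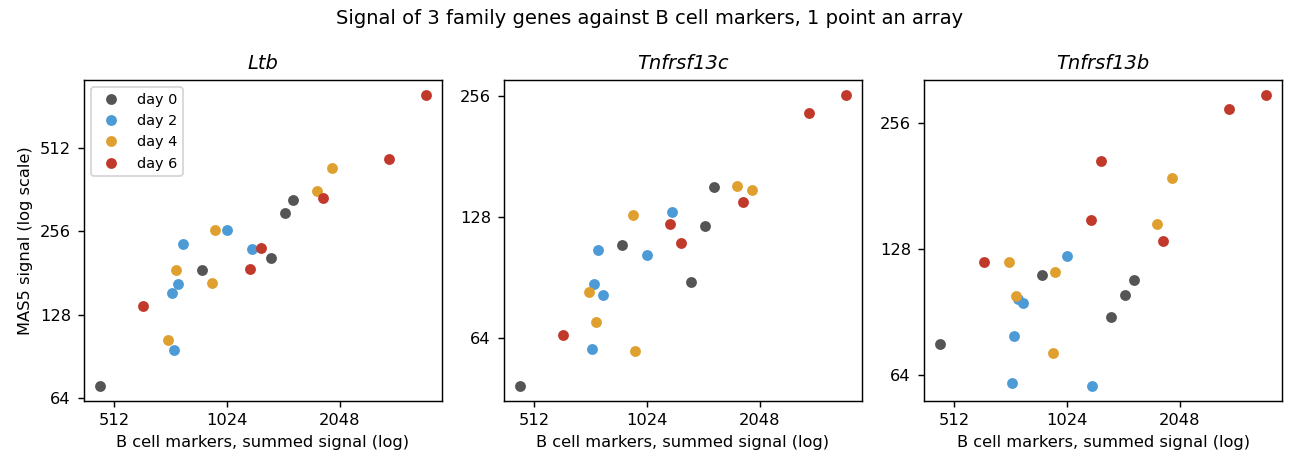
Signal of Ltb, Tnfrsf13c and Tnfrsf13b (vertical, log axes) against the summed signal of 7 B cell markers (horizontal, log axes), 1 point an array, coloured by day. Day 6 mouse 29 (3480) and day 6 mouse 4 (2767) lie at the upper right in each panel, and the within-day r of Ltb is 0.64, 0.91 and 0.97 at days 2, 4 and 6.

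Among members of bone and lymphoid organ signalling, Tnfrsf11b (osteoprotegerin), a secreted decoy for RANKL and TRAIL, had day 0 signals of 32.1, 45.0, 48.7, 57.6 and 67.9. Its lowest, median and highest signals were 58.3, 85.9 and 139 at day 2, 68.3, 90.0 and 138 at day 4, and 119, 140 and 255 at day 6. Days 4 and 6 did not overlap day 0, although day 4 mouse 8 at 68.3 lay just above the highest array of day 0. Tnfrsf11b reached the filter only with its day 6 arrays. It rose by 0.79 (SE 0.22) at day 4 (limma adjusted p = 0.0164) and by 1.35 (SE 0.22) at day 6 (limma adjusted p = 6.01e-05). A dimmer second probe set, not kept, ranged from 22.4 to 99.4 at day 0 and from 36.7 to 96.9 at day 6. The day 4 call of the first was lost without day 0 mouse 3 (0.0536) and with the hybridization control covariate (1.03, limma adjusted p = 0.0808).

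Tnfsf11 (RANKL), the ligand that Tnfrsf11b holds, was too dim for the filter, and it is described here because the fit without a filter called it. Its day 0 signals were 2.6, 6.3, 7.3, 18.6 and 36.9. The lowest, median and highest were 1.15, 13.7 and 36.9 at day 2, 4.05, 24.8 and 41.9 at day 4, and 53.0, 94.5 and 122 at day 6. All arrays of day 6 exceeded all arrays of the other days on this probe set. A dimmer second probe set overlapped, at 4.6 to 30.5 at day 0 and 5.8 to 101.7 at day 6. Without the filter the first rose by 1.84 (SE 0.34) from day 0 (limma adjusted p = 0.000329) and by 1.45 (SE 0.33) from day 4 (limma adjusted p = 0.00353). Tnfrsf11a (RANK), its signalling receptor, changed by -0.10 (SE 0.09) at day 6 (limma adjusted p = 0.438), and a second probe set by -0.43 (limma adjusted p = 0.0903).

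Of the remaining receptors, Ltbr, the lymphotoxin receptor of stroma and epithelium, had day 0 signals of 1219, 1268, 1389, 1501 and 1530. Its lowest, median and highest were 1415, 1509 and 1835 at day 2, 1386, 1510 and 1706 at day 4, and 1545, 1621 and 1655 at day 6. Day 6 lay just above day 0 with no overlap, and the rise was 0.22 (SE 0.07, limma adjusted p = 0.022), the smallest of the calls. It was lost under median centring (0.14, limma adjusted p = 0.254) and without day 0 mouse 1 (0.0746) or day 0 mouse 4 (0.0645). Tnfrsf12a (Fn14), the receptor for TWEAK induced by injury, ranged from 335 to 1181 at day 0 and from 537 to 1452 at day 6, a change of 0.36 (SE 0.29, limma adjusted p = 0.367). Tnfrsf19 (TROY), a Wnt target of intestinal stem cells, changed by 0.56 (SE 0.22) at day 4 (limma adjusted p = 0.0932) and by 0.01 (SE 0.22) at day 6 (limma adjusted p = 0.989). Tnfrsf14 (HVEM) and its ligand Tnfsf14 (LIGHT) were not kept: Tnfrsf14 lay at or under 10.6 on all arrays, and Tnfsf14 at or under 38.6 on all but day 6 mouse 21 (116).

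The probe set that the platform annotation names Tnfsf13os was the 1 tested member that fell at day 6. Which strand and transcript it measures was not checked here. Its day 0 signals were 410, 496, 528, 539 and 594, and its lowest, median and highest were 357, 410 and 515 at day 2, 410, 496 and 639 at day 4, and 170, 240 and 403 at day 6. Day 6 lay below days 0 and 4 with no overlap, at a log2 change of -0.94 (SE 0.18) from day 0 (limma adjusted p = 0.000294) and -0.93 (SE 0.17) from day 4 (limma adjusted p = 0.000373). Tnfsf13, the ligand on the other strand, had no probe set of its own symbol alone and was not analysed here.

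Of the 14 calls at day 6, 9 had no overlap with day 0: 8 rose and 1 fell. The share of all genes with no overlap was not counted, so this describes the members only. Among the 8, Tnf, Tnfrsf11b and Cd40 reached the filter only with their day 6 arrays. Among the day 6 arrays, day 6 mouse 4 held the highest signal for 9 of the 22 genes, day 6 mouse 29 for 7, day 6 mouse 7 for 3, day 6 mouse 21 for 2, day 6 mouse 1 for 1 (Tnf) and day 6 mouse 3 for none. With the hybridization control level as a covariate, 4 of the 14 day 6 calls passed: Tnfrsf9, Fas, Tnfrsf11b and Tnfrsf1a. The share of all genes that passed with it is not given here, so the drop is not a result about the family. Of the others, Tnfsf10 (1.07), Cd40 (0.91) and Ltbr (0.29) had larger log2 changes than without it, Tnfsf13os (-0.88) and Tnfrsf1b (0.82) slightly smaller ones, and Tnf (0.79), Tnfrsf13b (0.63), Tnfsf13b (0.53), Tnfsf9 (0.52) and Tnfrsf4 (0.50) lower ones. That level itself differed between days 0 and 6 with no overlap (11.55 to 11.68 against 10.89 to 11.39), so the covariate and the day largely coincide. The same covariate left none of the day 4 calls against day 0 and kept the 9 calls between day 4 and day 6.

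Genes placed downstream of the family were followed through lists chosen with earlier results of these data known. The filter, which can favour genes high at day 6, also set which listed genes were measured. The counts below therefore describe the lists and are no test of them. Whether signals of the family moved these genes, rather than other signals or a change in cell types, was not tested. Of 20 listed genes of NF-kappaB feedback and TNF-induced targets, 16 were measured. Of these 16, 12 rose and none fell at day 6, where 18.1% of all genes rose and 14.3% fell. Their median log2 change was 1.43 against 0.02 over all genes. Cxcl1, a neutrophil chemokine, rose by 2.90 (limma adjusted p = 1.07e-07). Ccl2, a monocyte chemokine, rose by 2.78, Tnfaip2, a TNF-induced gene of endothelium, by 2.37, and the adhesion molecule Vcam1 by 2.08 (limma adjusted p = 3.26e-07, 3.45e-08 and 1.02e-07). Those that did not pass at day 6 were Tnfaip3 (0.23), Nfkbib (0.01), Tnip1 (-0.24) and Ccl20 (-0.53). At day 4, where 12.1% of all genes rose and 4.32% fell, 4 of the 16 rose: Vcam1 by 1.12, Tnfaip2 by 0.92, Madcam1, the mucosal addressin, by 0.82 and Icam1 by 0.69 (limma adjusted p = 0.000814, 0.00511, 0.0123 and 0.0117). At that day 1 fell, Ccl20, an epithelial chemokine, at -0.68 (limma adjusted p = 0.0452). At day 2 none of the 16 passed.

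Of 30 measured signalling genes, 11 rose and 5 fell at day 6, with a median of 0.20, where 18.1% of all genes rose and 14.3% fell. The 4 largest were Ripk3 (1.35) and Mlkl (0.91), the kinase and the effector of necroptosis, the adaptor Traf4 (-0.60) and Nfkb2 (0.42), a subunit of the noncanonical NF-kappaB pathway (limma adjusted p = 1.37e-07, 0.000115, 0.0148 and 0.00622). At day 4, where 12.1% of all genes rose and 4.32% fell, 2 of the 30 rose and 1 fell: the kinase Map3k7 fell by 0.49 (limma adjusted p = 0.000566), and the adaptor Traf6 and the kinase Ikbkb rose by 0.45 and 0.17 (limma adjusted p = 0.0217 and 0.0313). None of the 30 passed at day 2. Of 6 genes of ligand and receptor shedding, 3 rose and none fell at day 6 (18.1% and 14.3% of all genes): the protease inhibitor Timp3 by 0.67, and the sheddases Adam10 by 0.32 and Adam17, which releases TNF, by 0.31 (limma adjusted p = 0.00331, 0.000164 and 0.00621). At day 4, against 12.1% of all genes, Timp3 (0.66) and Adam10 (0.24) had already risen and none of the 6 fell (limma adjusted p = 0.00872 and 0.00724). Of the relatives outside the symbol rule, 2 were measured and neither passed in any of the 5 comparisons.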

How the data were processed

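Colon RNA of 23 mice was measured on Affymetrix mouse genome 430 2.0 arrays. The deposited values are signal intensities made by the authors with MAS5, per the submitters' processing notes, with no version given. Their mean after trimming 2% at each end, averaged over the 23 arrays, was 500, and no further normalization was applied. After such scaling a change in the total amount of RNA cannot be seen, and precision is limited by the number of arrays.

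Probe sets were named from the platform annotation, which can be old, and 3 probe sets that pair a family symbol with others were not named. Probe sets with at least 5 arrays above their own median were kept (24627), and the one with the highest mean stood for a gene. Values were analysed as log2(signal + 16), which understates changes of dim genes. The fit used limma 3.58.1 in R 4.3.3 (lmFit, eBayes with trend) on all 4 days, and was tested on simulated data. The second probe sets come from a fit of every kept probe set. Marker lists were compared by exact permutation tests of summed signal, two-sided. The members and lists were chosen with earlier results of these data known. Full values are given for members that passed with no overlap and for Tnf and its receptors, and for pathway lists up to 4 genes that passed with the largest change at each day. Where a gene has several probe sets, values are those of the brightest unless another is named, and some dimmer probe sets are not described. Correlations and figures used Python 3.11.15 and scipy 1.17.1. Signals of different probe sets were not set against each other. Alternatives covered the pseudocount (1 and 64), normalization, filter, probe set choice, fit, covariate, replicate block and arrays left out.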

Additional observations from a re-analysis of the deposited data

Results flagged for a closer look

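In 96 groups of 1 gene and 1 day (the 22 tested genes with Tnfsf11 and Tnfrsf17), 4 had an array whose gap to the nearest other array was large against the range of the group, on the log2 scale. Chance flags about 1 in 20 such groups. Ltbr was 1835 on day 2 mouse 17, against 1415 to 1542 on the other 5 arrays. Tnfrsf11a was 364 on day 4 mouse 4, against 415 to 448. Tnfrsf11b was 255 on day 6 mouse 7, against 119 to 157. Tnfrsf17 was 48.7 on day 6 mouse 21, against 4.40 to 9.30.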

How the results depend on the processing

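The 28 calls of single genes kept their direction under every one of the up to 15 alternatives that gave a value, 11 passed in all of them, and 9 were lost by leaving out 1 array. The number of members that passed at day 2 against day 0 was 0, and it was 1 (Fas) under quantile normalization, median centring and a fit of those 2 days alone, with a range of 0 to 1 over arrays left out. At day 4 against day 0 it was 3, with a range of 2 to 4, and 0 with the hybridization control level as a covariate. At day 6 against day 0 it was 14, with a range of 12 to 15, and 4 with that covariate. Between day 2 and day 4 it was 2, with a range of 0 to 3. It was 0 under median centring, with the covariate, and without the 4 arrays whose pancreatic or squamous signal stood apart, high or low. Between day 4 and day 6 it was 9, with a range of 7 to 11 over arrays left out. The cause of these shifts was not tested. Shares of all genes that passed under each alternative are not given here, so these counts describe the members only. Under the filter on the mean over all arrays, 18 members were tested, so Tnf, Tnfsf9, Tnfrsf9 and Tnfrsf11b gave no value. With the mouse number as a random replicate block 14 members passed at day 6 against day 0, and it changed no count. Over 17 pairs of arrays with the same number the mean correlation was 0.05 and 3 were over 0.1. Over 181 pairs of different numbers the mean was 0 and 36 were over 0.1. The numbers were therefore not taken to pair the arrays, although 1 pair of the same number reached 0.70 against at most 0.38 among different numbers. Signals near the floor of the array, as for most untested members, can hide a change.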
